A study of Mus musculus with 6 samples.

Results

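Genes of fibroblast and mesenchymal matrix were examined in mouse embryonic stem cells (ESCs) and in the neural precursor cells (NPCs) made from them, as a check for feeder or mesenchymal cells in the cultures. The set was named by gene and comprised Col1a1, Col1a2, Col3a1, Lum, Postn, Dcn, Fn1, Acta2 and Thy1. All 9 had a row, of 17144 genes measured. The ESCs were the wild type line V6.5, derived from a blastocyst of 129SvJae/C57B6 F1 background and grown in DMEM with fetal bovine serum and LIF, the cytokine that holds mouse ESCs in self-renewal. The NPCs, also wild type, were differentiated in vitro from these ESCs and grown on polyornithine and laminin in N3 medium with bFGF and EGF. Each cell type had 3 biological replicates with 1 Affymetrix mouse expression array each, 6 arrays in all, and all came from 1 line. Whether the ESCs for the arrays were grown on feeder fibroblasts is not given in the sources used here.

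Fibroblasts and other mesenchymal cells build the interstitial matrix, in which collagen fibrils are spaced by small proteoglycans and tied to cells by fibronectin. Mouse embryonic fibroblasts are the usual feeder layer of ESC cultures, and they express fibrillar collagens, fibronectin and smooth muscle actin strongly. Neural progenitors of the brain instead live in a matrix rich in hyaluronan, lecticans and tenascins, with little fibrillar collagen. Fibronectin and actin are not confined to mesenchyme, so the collagens and the small proteoglycans are the more specific members of the set.

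Values are log2 scale robust multi-array average (RMA) values, in which a step of 1 is a doubling of signal. The median value of an array was 5.75 to 5.76 for ESCs, against 5.59 to 5.61 for NPCs. Across genes, pairs of ESC arrays had correlations of 0.996 to 0.998, and the pair of NPC replicates 1 and 2 had 0.997. NPC replicate 3, labelled NP39, stood apart, with correlations of 0.978 to 0.979 to the other NPC arrays. The 9 genes are therefore given array by array. Few defining genes could be named, and those of neural progenitors came from tables sorted by the rise in NPCs, so their direction is no check of the labels. Pou5f1, the pluripotency factor OCT4, averaged 12.44 in ESCs and 3.70 in NPCs, while Fabp7, a radial glia gene, averaged 3.78 and 13.05. The neural progenitor filament gene Nes averaged 5.63 and 7.68.

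Of the 9 genes, 5 were lower in NPCs than in ESCs and none was higher, by limma (a linear model fitted across all 17144 genes, called at a Benjamini-Hochberg adjusted p under 0.05 and a difference over 1.5-fold). These were Acta2, Fn1, Col1a2, Thy1 and Col1a1. Among all genes 18.7% were called lower in NPCs and 34.1% were called in either direction. The median difference of the set was -0.70 on the log2 scale, against -0.04 over all genes. In 6 of the 9 genes every NPC array lay below every ESC array, which held for 32.6% of all genes. In bulk RNA, fewer cells of a type and less RNA per cell cannot be told apart.

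**Figure D1:**
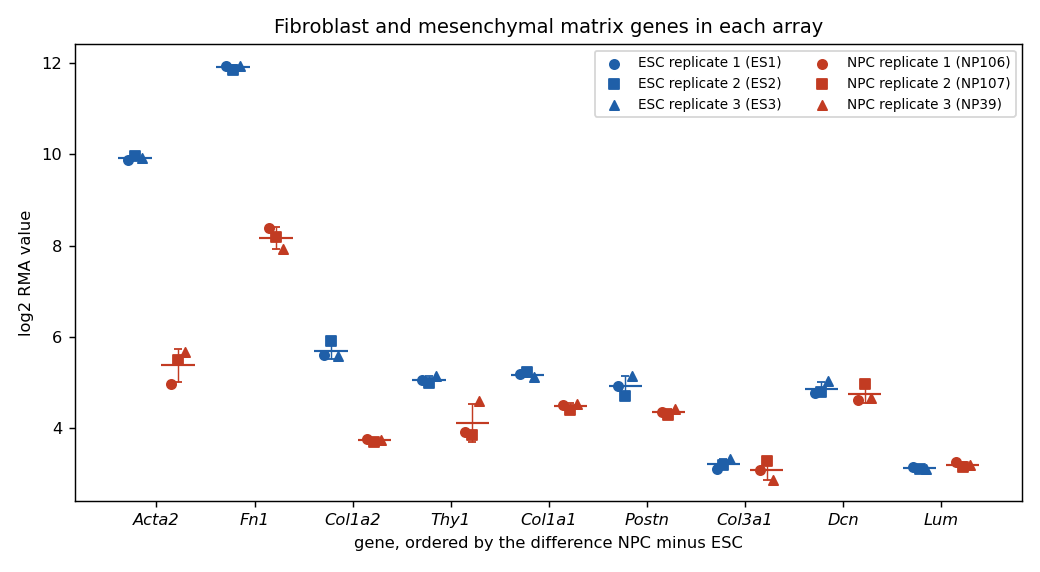
Log2 RMA value of each of the 9 genes (horizontal axis, ordered by the difference NPC minus ESC) in the 3 ESC arrays (blue) and the 3 NPC arrays (red), with horizontal lines for means and bars for the SD. Acta2 and Fn1 stand at 9.87 to 11.94 in every ESC array and well below that in NPCs, and Col3a1 and Lum stay between 2.86 and 3.33 in all 6 arrays.

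The greatest difference was in Acta2 (ENSMUSG00000035783_at), which encodes smooth muscle alpha actin, a contractile filament protein of smooth muscle and myofibroblasts. Its ESC arrays read 9.87, 9.96 and 9.93, and its NPC arrays read 4.97, 5.50 and 5.66. The groups were far apart, and NPC replicate 1 was the lowest array. Acta2 fell by 4.54 on the log2 scale (SE 0.17, adjusted p = 1.33e-06 by limma), or 23.3-fold, with a 95% confidence interval from 17.5-fold to 30.9-fold. Only 0.747% of all genes had a larger fall. In percentile of signal among all genes of an array, Acta2 stood at 94.6 ± 0.257 in ESCs and at 47.2 ± 4.65 in NPCs (SD over 3 arrays). A percentile describes the brightness of a probe set and is not an amount of transcript.

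Because Acta2 and Col1a2 are the called genes for which a promoter sequence was at hand, the 250 bases before the start site of each are shown. They come from RefSeq (GRCm38.p6), which gave promoters for 4 of the 9 genes, and are written 5′ to 3′ along the gene's strand. Acta2 lies on the minus strand, at chr19:34255374-34255623, and Col1a2 on the plus strand, at chr6:4505368-4505617. Capitals mark a CArG box, the element read by serum response factor in muscle and actin genes, with at most 1 mismatch among its central bases.
Acta2: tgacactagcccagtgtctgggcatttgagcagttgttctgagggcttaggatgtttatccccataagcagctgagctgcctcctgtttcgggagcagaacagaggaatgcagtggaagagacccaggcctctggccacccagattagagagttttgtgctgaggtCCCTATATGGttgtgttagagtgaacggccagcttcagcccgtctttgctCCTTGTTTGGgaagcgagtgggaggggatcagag
Col1a2: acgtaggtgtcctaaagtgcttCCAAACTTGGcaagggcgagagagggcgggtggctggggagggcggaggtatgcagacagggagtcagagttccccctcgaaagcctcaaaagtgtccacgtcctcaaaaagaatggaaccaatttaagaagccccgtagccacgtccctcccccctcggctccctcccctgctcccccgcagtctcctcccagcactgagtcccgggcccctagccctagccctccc

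Acta2 held 2 such elements, starting 84 and 34 bases before the annotated start site, and Col1a2 held 1, starting 228 bases before it. A CArG box of this kind was found in 8.59% of 32851 mouse promoter windows of the same length. Each marked element carries 1 mismatch, so none is exact, and an exact one was found in 1.47% of the windows. The element reads alike on both strands, and the Postn and Col3a1 windows held none. Whether the element bears on the falls was not tested, and promoters were at hand for only 4 of the 9 genes. A match of letters is a description of the sequence and does not show that a factor was bound.

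Fn1 (ENSMUSG00000026193_at) encodes fibronectin, the adhesive glycoprotein that joins integrins to collagen and fibrin. ESC arrays read 11.94, 11.84 and 11.94, so that Fn1 was among the brightest probe sets of ESCs, at percentile 99.4 ± 0.0684 (SD, n = 3 arrays). NPC arrays read 8.39, 8.19 and 7.92, or percentile 81.4 ± 2.63. Every NPC array was thus far below every ESC array, yet Fn1 was the only one of the 9 genes whose NPC mean stood above percentile 75. Fn1 fell by 3.73 (SE 0.13, adjusted p = 8.11e-07 by limma), a 13.3-fold difference with a 95% confidence interval from 10.8-fold to 16.4-fold.

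The fibrillar collagens differed among themselves. Type I collagen, the main fibril of skin, bone and tendon, is assembled from the alpha 1 chain of Col1a1 and the alpha 2 chain of Col1a2. Col1a2 (ENSMUSG00000029661_at) read 5.61, 5.91 and 5.58 in ESCs and 3.76, 3.69 and 3.74 in NPCs. The NPC arrays were nearly equal, and all lay far below ESCs. Col1a2 fell by 1.97 (SE 0.11, adjusted p = 7.09e-06 by limma), or 3.91-fold, from percentile 49.3 ± 2.42 (SD, n = 3 arrays) to 21.0 ± 1.03.

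Col1a1 (ENSMUSG00000001506_at) changed less. Its ESC arrays read 5.18, 5.23 and 5.11, and its NPC arrays read 4.50, 4.39 and 4.53. Within each cell type the arrays lay close together, and the groups did not overlap. Col1a1 fell by 0.70 (SE 0.08, adjusted p = 0.00031 by limma), or 1.62-fold, little above the 1.5-fold threshold, and its 95% confidence interval ran from 1.42-fold to 1.86-fold. The call ended with arrays centred on their medians (-0.55) and with quantile normalization (-0.55).

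The change of the chains relative to each other was taken within each array, after their values had been seen. The Col1a2 value minus the Col1a1 value was 0.43, 0.68 and 0.47 in ESC arrays and -0.74, -0.70 and -0.79 in NPC arrays. The groups were separate, and the mean shifted by -1.27. The contrast was picked for this separation. An exact permutation test gave p = 0.1, the smallest value it can give with so few arrays, so it cannot decide whether the shift is real. The contrast says nothing about the amount of either chain.

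Col3a1 (ENSMUSG00000026043_at), the type III collagen of loose connective tissue and vessel walls, was not called. It read 3.11, 3.18 and 3.33 in ESCs and 3.08, 3.28 and 2.86 in NPCs, and the groups overlapped. The difference was -0.14 (SE 0.12, adjusted p = 0.419 by limma), with a 95% confidence interval from -0.43 to 0.16. Its percentile averaged 9.21 in ESCs and 6.96 in NPCs, and was 10.9 at most in any array.

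The small leucine-rich proteoglycans, which bind collagen fibrils and set their spacing and are typical products of fibroblasts, were not called either. Lum (ENSMUSG00000036446_at), or lumican, read 3.14, 3.11 and 3.10 in ESCs and 3.25, 3.15 and 3.19 in NPCs. All NPC values were above all ESC values, but by little, with a difference of 0.08 (SE 0.07, adjusted p = 0.425 by limma) and a 95% confidence interval from -0.09 to 0.26. With arrays centred on their medians the difference was 0.23 (adjusted p = 0.0313 by limma), past the adjusted p but still under 1.5-fold. Its percentile lay between 6.25 and 10.3 over the 6 arrays.

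Dcn (ENSMUSG00000019929_at), or decorin, read 4.77, 4.78 and 5.02 in ESCs and 4.60, 4.98 and 4.65 in NPCs, with overlap. The difference was -0.11 (SE 0.13, adjusted p = 0.52 by limma), with a 95% confidence interval from -0.42 to 0.19. For Col3a1, Lum and Dcn these intervals lie within 1.5-fold (0.58 on the log2 scale) in either direction. Col3a1 and Lum averaged percentile 9.21 and 7.46 in ESCs, near the bottom of the signal range, where a fall has little room to show. The signs of Col3a1 and Dcn turned with arrays centred on their medians (0.02 and 0.04), and that of Dcn also turned with quantile normalization (0.04). Without detection calls, a low value does not tell whether a transcript was present.

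Postn (ENSMUSG00000027750_at) encodes periostin, a matricellular protein of periosteum, tendon and activated fibroblasts. It read 4.92, 4.71 and 5.15 in ESCs and 4.36, 4.30 and 4.42 in NPCs. No NPC array reached an ESC array, although ESC replicates were spread more widely than for any other gene of the set. The difference of -0.57 (SE 0.12, adjusted p = 0.00691 by limma) passed the adjusted p but was 1.48-fold and so just outside the 1.5-fold threshold. It was -0.68 without ESC replicate 2 and -0.60 without NPC replicate 3, and was called in both cases. The difference shrank to -0.41 with arrays centred on their medians, -0.42 with quantile normalization and -0.45 without ESC replicate 3. Postn was not called in these settings. Tested on its own variances, with no moderation across genes, Postn did not pass the adjusted p.

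**Figure D2:**
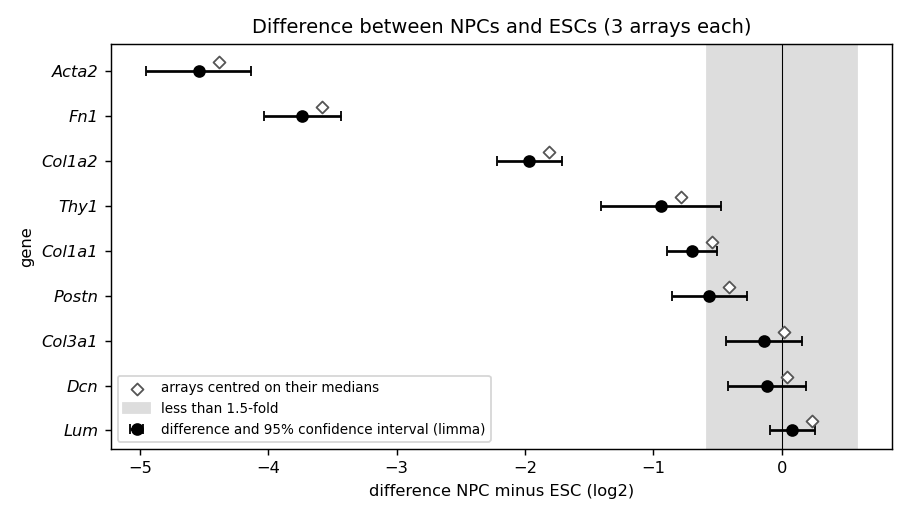
Difference NPC minus ESC of each gene on the log2 scale (black points, with 95% confidence intervals from limma over 3 arrays per cell type) and the same difference with arrays centred on their medians (open diamonds). The grey band marks less than 1.5-fold, which holds the whole intervals of Col3a1, Dcn and Lum, while those of Acta2, Fn1 and Col1a2 lie fully outside it.

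Thy1 (ENSMUSG00000032011_at), a surface glycoprotein of fibroblasts that mature neurons and T cells also carry, was the gene in which NPC replicates differed most. It read 5.05, 4.98 and 5.14 in ESCs, against 3.90 and 3.85 in NPC replicates 1 and 2 and 4.59 in NPC replicate 3. All NPC arrays were below all ESC arrays, with replicate 3 in between. Thy1 fell by 0.94 (SE 0.20, adjusted p = 0.0058 by limma), or 1.92-fold, with a 95% confidence interval from 1.39-fold to 2.65-fold. Without NPC replicate 3 the difference was -1.18 (adjusted p = 6.25e-06 by limma). Thy1 was not called when each gene was tested on its own variances, with no moderation across genes.

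NPC replicate 3 departed from the mean of NPC replicates 1 and 2 by 0.71 at Thy1, and 7.83% of all genes had a larger departure in either direction. The departure was 0.42 at Acta2, -0.37 at Fn1 and -0.32 at Col3a1, and at most 0.14 in size at the other 5 genes. At Acta2, NPC replicates 1 and 2 themselves differed by 0.53. The departure of replicate 3 was over 1 at 686 of all 17144 genes and at none of the 9. With so small a share among all genes, its absence among 9 does not set them apart. The median size of the departure was 0.14 at the 9 genes and 0.17 over all genes. Of the neuron markers listed, only Dcx, a microtubule protein of young neurons, could be named. It read 4.86, 5.06 and 3.76 in NPC replicates 1 to 3 and 3.33 to 3.68 in ESC arrays. Among the 3 NPC arrays alone, replicate 3 thus had the lowest Dcx and the highest Thy1 value, while ESC arrays had lower Dcx and higher Thy1 values still. The part of other cell types in the Thy1 value was not tested.

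**Figure D3:**
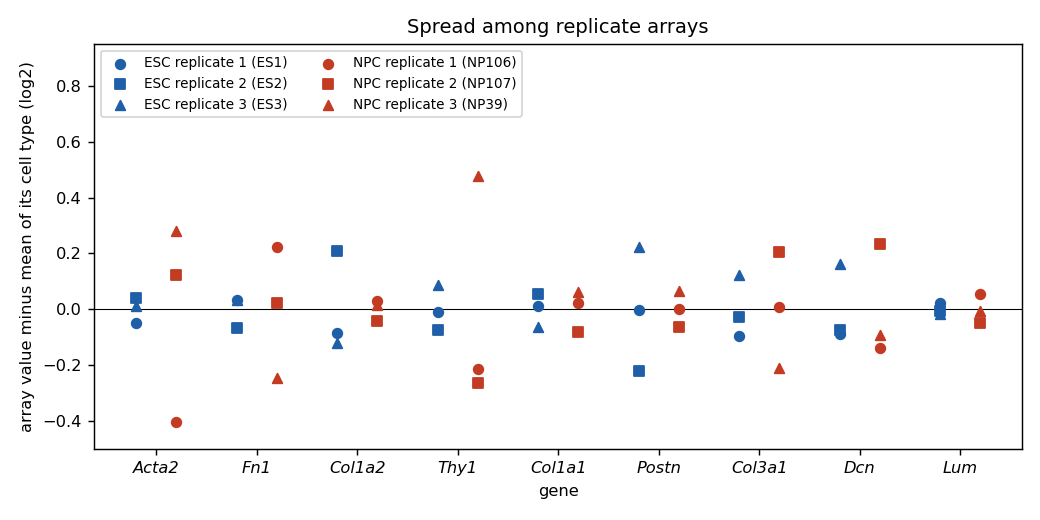
Value of each array minus the mean of its own cell type, on the log2 scale, for the 9 genes (ESC arrays blue, NPC arrays red, replicates 1 to 3 by symbol). No array is highest or lowest throughout, and the widest gap is at Thy1, where NPC replicate 3 lies 0.71 above the mean of NPC replicates 1 and 2.

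Among ESC arrays, replicate 1 was highest at 2 of the 9 genes (Lum and Fn1), replicate 2 at 3 genes (Col1a1, Col1a2 and Acta2) and replicate 3 at 4 genes (Col3a1, Postn, Dcn and Thy1). The range over ESC arrays ran from 0.04 at Lum to 0.44 at Postn, so some of these orders rest on small differences. What sets the order was not tested. Among NPC arrays, replicate 1 was highest at 3 genes, replicate 2 at 2 and replicate 3 at 4. The median SD of the 9 genes over ESC arrays was 0.081, against 0.092 for all genes, and over NPC arrays it was 0.20, against 0.14.

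Measured by position among all genes of an array, most of the set lay below percentile 50, where 50% of all genes lie by definition. In ESCs 7 of the 9 genes had a mean percentile below 50, the exceptions being Fn1 and Acta2, and in NPCs 8 did. By mean percentile, 2 of the 9 genes in ESCs and 3 in NPCs lay below 25, as 25% of genes do in any array. Col3a1, Lum and Dcn, which by background knowledge are products mainly of mesenchymal cells, averaged percentile 9.21, 7.46 and 38.3 in ESCs and 6.96, 9.20 and 38.8 in NPCs. Col1a1 and Col1a2, also among the more specific members, averaged 42.5 and 49.3 in ESCs and 34.8 and 21.0 in NPCs. Both were called lower in NPCs. The amount of RNA from feeder or mesenchymal cells in these cultures was not tested, since no array of such cells was analysed here.

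**Figure D4:**
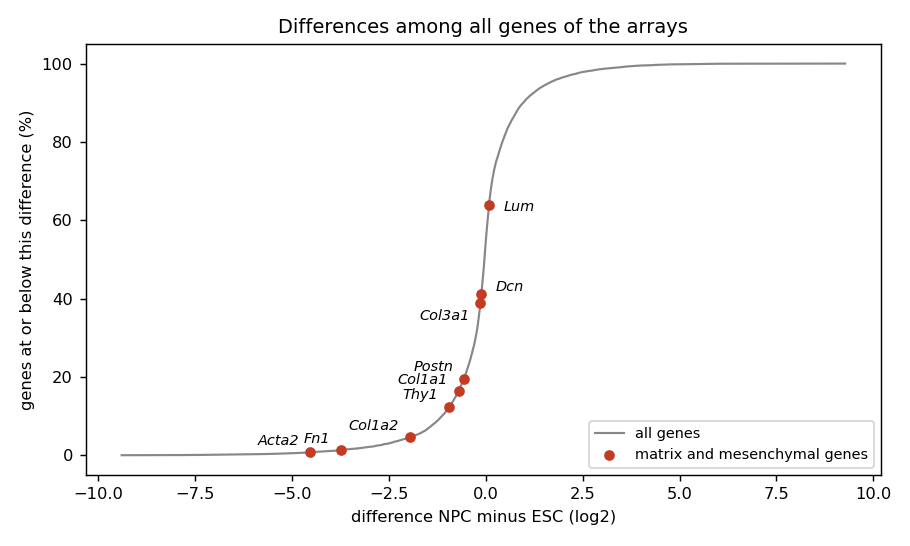
Cumulative share of all 17144 genes (vertical axis, percent) against the difference NPC minus ESC on the log2 scale (horizontal axis), with the 9 genes marked in red. Acta2, Fn1 and Col1a2 sit in the lower tail at -4.54, -3.73 and -1.97, and Col3a1, Dcn and Lum sit in the steep middle part, between -0.14 and 0.08.

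Around these genes, the machinery that makes or receives the matrix could be followed only in part. Names for genes outside the set came from tables sorted by the rise in NPCs, which leaves out most genes that did not rise, so the counts below carry no weight as to direction. Of 14 collagen and fibronectin receptors listed, 9 could be named. Itgb1, the integrin beta 1 chain shared by most collagen and fibronectin receptors, went from 8.82 ± 0.06 to 9.85 ± 0.32 (SD, n = 3 arrays), a rise of 1.03 (adjusted p = 0.00125 by limma). Itgav, an integrin alpha chain of fibronectin and vitronectin receptors, rose by 1.01 (adjusted p = 0.000352 by limma). The collagen-binding receptor kinases rose too, Ddr1 by 1.82 and Ddr2 by 3.34, with adjusted p values of 6.52e-05 and 0.000406 by limma. Itgb8 rose by 5.10, Cd44, the hyaluronan receptor, by 3.36, Itga9 by 2.36 and Itga1 by 1.94, with adjusted p values by limma of 3.42e-06, 0.000252, 0.0105 and 0.000788. Itga9 read 7.83, 7.93 and 5.67 in NPC replicates 1 to 3, and its difference was 3.10 without NPC replicate 3. The departure of NPC replicate 3 from replicates 1 and 2, taken as their mean, was 1.51 at Ddr2, -1.45 at Cd44 and -1.01 at Itga1. Itga8, the alpha chain of a fibronectin and nephronectin receptor, read 8.01 and 8.22 in NPC replicates 1 and 2 but 4.24 in NPC replicate 3, against 3.55 to 4.12 in ESCs. Its difference of 3.07 (adjusted p = 0.0373 by limma) was 4.36 without NPC replicate 3, and it was not called when any other array was left out (adjusted p between 0.0868 and 0.115). Itgb1, Itga1, Itga8, Itga9 and Cd44 lost their calls without moderation of the variances.

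Of 14 collagen processing genes 2 could be named. Serpinh1, the chaperone HSP47 that folds collagen in the endoplasmic reticulum, rose from 9.18 ± 0.03 to 11.73 ± 0.03 (SD, n = 3 arrays), a difference of 2.55 (adjusted p = 3.96e-07 by limma). Bmp1, the protease that trims procollagen, rose by 2.24 (adjusted p = 1.14e-06 by limma). Of 19 other interstitial matrix genes 3 could be named. Fbn1, the microfibril protein fibrillin, rose by 3.01 and Col11a1, a minor fibrillar collagen, by 2.15, with adjusted p values of 3.09e-06 and 1.91e-05 by limma. Tnc, the tenascin of neural stem cell niches, rose by 4.81 (adjusted p = 2.61e-05 by limma), with NPC replicate 3 at 11.99 and the other NPC arrays at 10.64 and 10.69.

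Among 12 mesenchymal regulators and receptors 4 could be named. Vim, the intermediate filament of mesenchymal and neural progenitor cells, stood at 12.49 ± 0.11 in NPCs and 9.20 ± 0.17 in ESCs (SD, n = 3 arrays), and Zeb1, Zeb2 and Twist1, regulators of mesenchymal transition, rose by 3.91, 1.69 and 2.44. Their adjusted p values by limma were 8.21e-07, 1.06e-05, 3.47e-05 and 5.64e-05. Of 10 basement membrane genes only Col4a5 could be named, with a rise of 1.66 (adjusted p = 0.00144 by limma), a call lost without moderation. No gene of the 7 smooth muscle and pericyte genes, the 5 endothelial genes or the 4 blood genes could be named, so whether Acta2 moved with other smooth muscle genes is not known.

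Likeness of pattern was measured over the 6 arrays as the root mean square difference of log2 values after each gene was centred on its own mean. Among named genes the nearest to Acta2 was Fn1 (0.53), and 170 other genes lay nearer. Col3a1 and Dcn were nearest to each other (0.082), with 127 genes nearer to Col3a1 and 99 nearer to Dcn. Nearest to Col1a2 was Rfx2, a transcription factor of ciliogenesis (0.17), with 134 genes nearer, and nearest to Col1a1 was Postn (0.18), with 1514 genes nearer, so that Postn is no close neighbour. With so few named genes that fell, these neighbours describe the naming as much as the pattern.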

How the data were processed

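RNA from 3 ESC and 3 NPC replicates was hybridized to Affymetrix mouse expression arrays. The authors deposited log2 RMA values, background corrected, normalized between arrays and summarized per Ensembl gene with a BrainCDF annotation (version and build not given in the sources used here). Of 17208 rows, 64 control probe sets were left out. No other filter, floor or normalization was applied.

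Differences were fitted by lmFit and eBayes of limma 3.58.1 under R 4.3.3 (all 6 arrays, no covariates, Benjamini-Hochberg adjustment over 17144 genes), with the study's thresholds. Its moderated Welch test was rebuilt as an alternative, beside other variance models, normalizations, filters, thresholds and left-out arrays. The number of arrays limits the precision. The scripts were tested on simulated data.

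The members and lists were chosen with earlier results of these data known. Member names came with their identifiers, as the RefSeq table (GRCm38.p6) holds no Ensembl identifiers. Other names came from the paper's expression tables, by matching all 6 values within 0.0001, and 2013 genes were named in all. The text names the members, listed genes that could be named and the nearest named profiles. Python 3.11.15, pandas 2.3.3 and matplotlib 3.10.9 were used.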

Additional observations from a re-analysis of the deposited data

How the results depend on the processing

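Acta2, Fn1 and Col1a2 were called lower in NPCs under every alternative that kept them, which for Col1a2 leaves out the filter at the median. Over the 9 genes, 133 of 144 values kept their direction and their side of the threshold. Of 462 values of the 28 other genes tested, 443 did, and none changed direction. Alternatives that change only the test, the filter or the threshold keep the group means, so direction could not change in them. The number of the 9 genes called was 4 with quantile normalization, median centring and the Welch test without moderation (Thy1 adjusted p = 0.117). Of all 17144 genes, 5874, 5944 and 4332 were called in these settings, against 5851 in the main fit. Without a fold threshold 6 of the 9 were called, as were 8407 of all genes. With a fold change over 2 it was 3 of the 9 and 3592 of all genes. The filters used the mean over all 6 arrays. At the median, 2 of the 9 genes were kept, Fn1 and Acta2, and both were called, as were 4123 of the 8572 genes kept. Their median difference was -4.14. Acta2 passed through its high ESC values, with an NPC percentile of 47.2, so a large fall was favoured by the filter itself. At the 25th percentile 7 of the 9 genes were kept, with a median of -0.94, and 5 were called, as were 5660 of 12858 genes. Otherwise the median of -0.70 became -0.55 with quantile normalization and with median centring, which gave -0.547 and -0.545. Median centring moved the median of all genes from -0.04 to 0.12, and the called genes from 2638 higher and 3213 lower to 3302 higher and 2642 lower. The signs of Dcn and Col3a1 then turned, to 0.0397 and 0.0166, and that of Dcn was 0.0356 with quantile normalization. Median centring moves every difference by the same amount, which is set by the lower medians of the NPC arrays. The cause of those lower medians, and of the changes with quantile normalization, was not tested.

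With each array left out in turn, 5 or 6 of the 9 genes were called, Postn being the gene added without ESC replicate 2 and without NPC replicate 3. The median of the set was then between -0.73 and -0.66 and the genes called in all between 5637 and 6199. ESCs and NPCs both carry replicate numbers 1 to 3, and deviations of same-numbered arrays correlated at 0.0264, 0.0110 and -0.00645. These values show no common signal of same-numbered arrays. Whether such arrays shared anything but the number is not known. Under the replicate block, 5867 genes were called and 5 of the 9, with a median of -0.70. The 3 arrays per cell type limit the precision.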
